A study of Rattus norvegicus with 6 samples.

Results

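The miR-200 family was examined in small RNA libraries labelled as rat testicle after torsion, a label that the marker miRNAs given below go against. The rule took miR-429 and every row of the expression table whose name begins with miR-200a, miR-200b, miR-200c or miR-141, which gave 9 of the 764 miRNA rows. They are rno-miR-200b-3p, rno-miR-200a-3p, rno-miR-429, rno-miR-200a-5p, rno-miR-200b-5p, rno-miR-200c-3p, rno-miR-141-3p, rno-miR-141-5p and rno-miR-200c-5p, named without the species prefix from here on. All 9 were above 0 in some library and were tested, and 4 averaged at least 10 reads per 1000000 assigned reads (RPM). Per the labels, the tissue came from male Sprague Dawley rats in which the left testicle had been twisted by 720°, held for 2 h and released for 3 days. There were 3 HO-1 knockout and 3 wild type libraries, so torsion was common to both groups and genotype was the only contrast. HO-1, or heme oxygenase 1, degrades heme and is induced by stress; its messenger RNA is outside this assay, so the genotype labels could not be checked against it. The sources used here give neither ages nor the way the knockout was made. Nor do they say that the libraries are of different animals, so a p-value here measures spread between libraries, which may be technical.

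Members of the miR-200 family are small RNAs of epithelial cells. They repress the transcription factors ZEB1 and ZEB2, and so keep E-cadherin and other epithelial genes on. ZEB1 and ZEB2 in turn repress the family's own genes, a loop known from the switch between epithelial and mesenchymal cell states. The family is made from a pair of clusters, one with miR-200b, miR-200a and miR-429 and the other with miR-200c and miR-141. Each hairpin can give a 3p and a 5p arm, and in this family the 3p arm is the strand that mostly enters the silencing complex.

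The seed, bases 2 to 8 of a mature miRNA, largely sets which messenger RNAs it represses, and it divides the 3p arms across the clusters rather than between them. By their known seeds, miR-200b-3p and miR-429 go with miR-200c-3p, and miR-200a-3p goes with miR-141-3p. RefSeq mature sequences (build GRCr8) were matched for 6 of the 9 rows. The 3p arms of the miR-200c and miR-141 cluster are shown because they stand for the 2 seeds, which are in capitals:
miR-200c-3p: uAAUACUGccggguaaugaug
miR-141-3p: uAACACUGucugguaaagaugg
With positions counted from 1 at the 5′ end and the base of miR-200c-3p first, they differ at 4 of 21 compared positions, U4C, C9U, G11U and U17A, of which U4C is in the seed. The 5p arms of miR-200a and miR-200b are shown because they are the low-abundance partners of the 2 main members, and their seeds, in capitals, are the same:
miR-200a-5p: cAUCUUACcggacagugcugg
miR-200b-5p: cAUCUUACugggcagcauugga
They differ at 5 of 21 compared positions, all outside the seed, C9U, A12G, U16C, G17A and C18U with the base of miR-200a-5p first. The sources used here do not say how reads that match several members were assigned. The hairpins of the miR-200c and miR-141 cluster place both arms, in capitals, on either side of the loop:
Mir200c: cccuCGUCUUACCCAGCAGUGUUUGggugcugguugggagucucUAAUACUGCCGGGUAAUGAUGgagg
Mir141: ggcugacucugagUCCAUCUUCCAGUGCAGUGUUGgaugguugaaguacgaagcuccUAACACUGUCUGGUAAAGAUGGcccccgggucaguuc

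Marker miRNAs of known cell types went against the testicle label in both genotypes: a hepatocyte miRNA led every library and germ cell miRNAs were rare. The tissue that the values describe is therefore not settled here. miR-122-5p, the main miRNA of hepatocytes, held 40.2% to 46.4% of the reads in the knockout and 32.7% to 36.6% in the wild type. The 10 rows of germ cell and gonad miRNAs summed to 27.7 to 32.6 RPM in the knockout and 36.1 to 53.7 RPM in the wild type, with 3 of the 10 at 0 in every library. The largest of them was miR-34c-5p, at 18.4 to 22.0 RPM in the knockout and 24.9 to 38.0 RPM in the wild type. The next was miR-34b-5p, at 4.22 to 5.30 RPM in the knockout and 5.15 to 8.56 RPM in the wild type. Totals of assigned reads, recovered from the steps of the RPM values, were 8300536 to 9809055 in the knockout and 9128924 to 10042673 in the wild type. In bulk tissue, fewer cells of a type and less RNA per cell cannot be told apart.

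The cluster of miR-200b, miR-200a and miR-429 was lower in the HO-1 knockout, and no row of the cluster of miR-200c and miR-141 passed the test. All 5 rows of the first cluster fell (limma, a linear model fitted across all miRNAs, on log2(RPM + 1); Benjamini-Hochberg adjusted p below 0.05 over 570 miRNAs), and of the 4 rows of the second none did. The first cluster summed to 422 ± 31.5 RPM in the knockout and 1369.8 ± 362 RPM in the wild type, and the second to 63.7 ± 7.5 RPM in the knockout and 51.7 ± 12.0 RPM in the wild type (SD, n = 3; exact two-sided permutation p = 0.1 and 0.3). The background share of tested miRNAs that fell was 5.61%, and the share that rose was 0.702%. The median log2 change was -1.10 over the 9 rows and -0.12 over all 570. Among the 218 miRNAs of at least 10 RPM, 26 fell and 3 rose in the same fit, with a median of -0.29. The family summed to 529, 457 and 471 RPM in knockout libraries 1 to 3, against 1528, 1015 and 1721 RPM in wild type libraries 1 to 3. Every knockout library was therefore below every wild type library, and the mean sum was 2.93-fold lower in the knockout, at 486 ± 38 RPM, than in the wild type, at 1422 ± 365 RPM (SD, n = 3; exact permutation p = 0.1, two-sided, and no smaller p can be had from 3 against 3 libraries). Such separation was common, since 41.7% of the single miRNAs of at least 10 RPM were also lower in every knockout library.

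**Figure D1:**
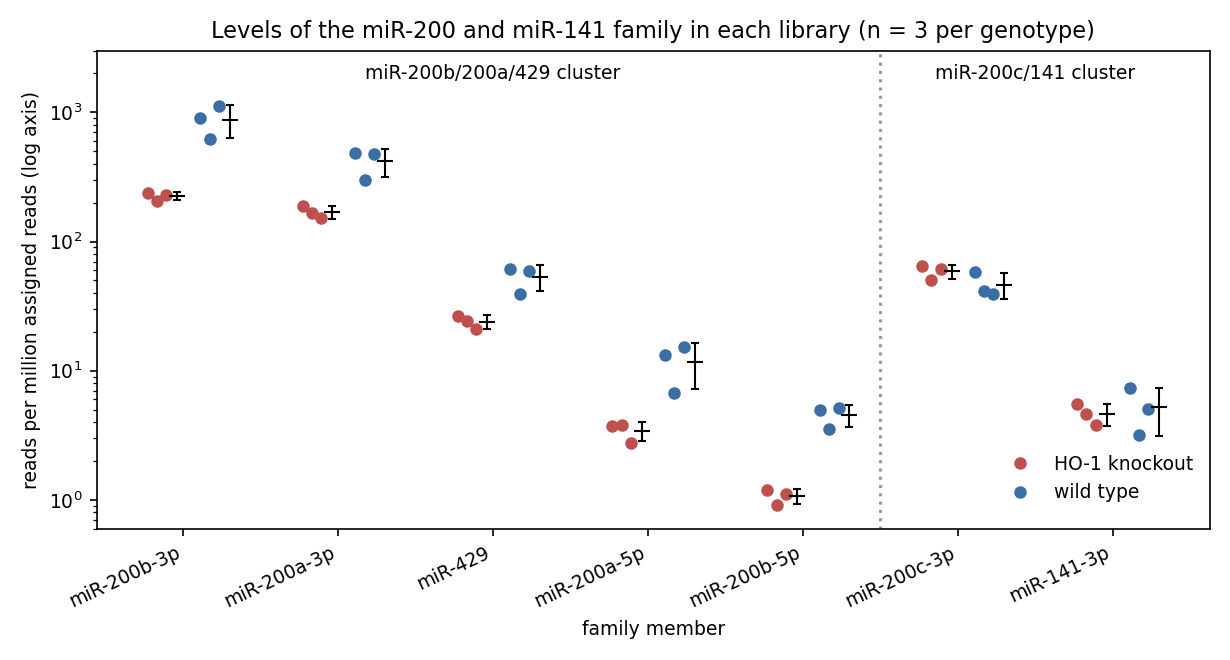
Level of each family member in every library, in RPM on a log axis, with HO-1 knockout left of wild type; points are libraries 1 to 3 from left to right and black bars are the mean and SD (n = 3 per genotype). The groups are apart for the 5 rows left of the dotted line and overlap for miR-200c-3p and miR-141-3p; the rows miR-141-5p and miR-200c-5p, which hold 0 in some libraries, are not drawn.

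miR-200b-3p was the most abundant member and the one with the largest fall among the 3p rows. It stood at 237.6, 206.8 and 228.9 RPM in knockout libraries 1 to 3, against 898, 621 and 1123 RPM in wild type libraries 1 to 3. The knockout libraries lay close together, with a coefficient of variation of 7.08%, and the wild type libraries spread more widely, at 28.5%. In the knockout the mean was 3.92-fold lower, and the log2 change was -1.93 (SE 0.21; adjusted p = 0.0033 in limma). Of the 570 tested miRNAs, 1 had a lower log2 change. By abundance it ranked 92 among the 764 rows in the knockout and 50 in the wild type.

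miR-200a-3p, which carries the other seed, was next in abundance. Its values were 189.3, 166.1 and 152.6 RPM in knockout libraries 1 to 3, against 485, 299.6 and 474 RPM in wild type libraries 1 to 3. The groups did not overlap, and the log2 change was -1.28 (SE 0.20; adjusted p = 0.016 in limma). miR-429 shares its seed with miR-200b-3p and was far less abundant. It was at 26.6, 24.3 and 20.9 RPM in knockout libraries 1 to 3, against 61.4, 39.3 and 59.2 RPM in wild type libraries 1 to 3, a log2 change of -1.10 (SE 0.21; adjusted p = 0.025 in limma). Wild type library 2 was the lowest wild type library for miR-200b-3p, miR-200a-3p, miR-429 and both 5p arms, and it still lay above every knockout library. Lack of overlap in this direction was common here: 21.6% of the tested miRNAs, and 41.7% of those of at least 10 RPM, were lower in every knockout library than in any wild type library.

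The 5p arms of this cluster are its passenger strands and were rare. miR-200a-5p was at 3.73, 3.77 and 2.78 RPM in knockout libraries 1 to 3, against 13.3, 6.68 and 15.3 RPM in wild type libraries 1 to 3, a log2 change of -1.47 (SE 0.33; adjusted p = 0.042 in limma). miR-200b-5p was at 1.20, 0.92 and 1.11 RPM in knockout libraries 1 to 3, against 4.98, 3.51 and 5.17 RPM in wild type libraries 1 to 3, a log2 change of -1.41 (SE 0.23; adjusted p = 0.016 in limma). These levels rest on 93 and 340 reads for miR-200a-5p and on 29 and 131 reads for miR-200b-5p, summed over the knockout and over the wild type libraries. The added 1 RPM understates the change of such rare rows: with 0.1 RPM added, the log2 change of miR-200b-5p was -1.97, close to the -1.93 of its 3p arm. That of miR-200a-5p was then -1.68, further from the -1.28 of its 3p arm.

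The second cluster is represented mainly by miR-200c-3p. It was at 65.1, 50.5 and 60.9 RPM in knockout libraries 1 to 3, against 58.2, 41.6 and 39.2 RPM in wild type libraries 1 to 3. The groups overlapped through wild type library 1, and the log2 change was 0.35 (SE 0.20; adjusted p = 0.36 in limma). Tested on the reads behind the RPM values, which could be recovered as whole numbers, it passed as higher in the knockout, with a log2 change of 0.58 in edgeR's quasi-likelihood test (adjusted p = 0.045) and 0.61 in DESeq2 (adjusted p = 0.013). The background shares called higher were 4.56% in edgeR and 10% in DESeq2. All 5 rows of the first cluster also fell in both tests, where 6.14% of the miRNAs were called lower in edgeR and 10.6% in DESeq2. Both tests also rescale the libraries. With rescaling but no reads, limma gave miR-200c-3p a log2 change of 0.57 with TMM (limma adjusted p = 0.085) and 0.59 with RLE (limma adjusted p = 0.077). miR-141-3p was at 5.54, 4.59 and 3.78 RPM in knockout libraries 1 to 3, against 7.37, 3.18 and 5.06 RPM in wild type libraries 1 to 3, with a log2 change of -0.09 (SE 0.31; adjusted p = 0.85 in limma) whose sign turned with TMM, RLE and upper-quartile scaling, with totals without miR-122 or without the 10 most abundant miRNAs, and in both tests on reads. Its 125 reads in the knockout and 151 in the wild type came with a coefficient of variation of 19.0% in the knockout and 40.3% in the wild type, so the difference was smaller than the spread between libraries.

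The passenger strands of that cluster were at the limit of detection. miR-141-5p had 7 reads over the 3 knockout libraries, 6 of them in library 2, and 3 reads over the 3 wild type libraries. miR-200c-5p had 0 of 27100693 recovered assigned reads in the knockout, which allows a level of up to 0.111 RPM, and 1 read in the wild type. No fold is given for either.

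**Figure D2:**
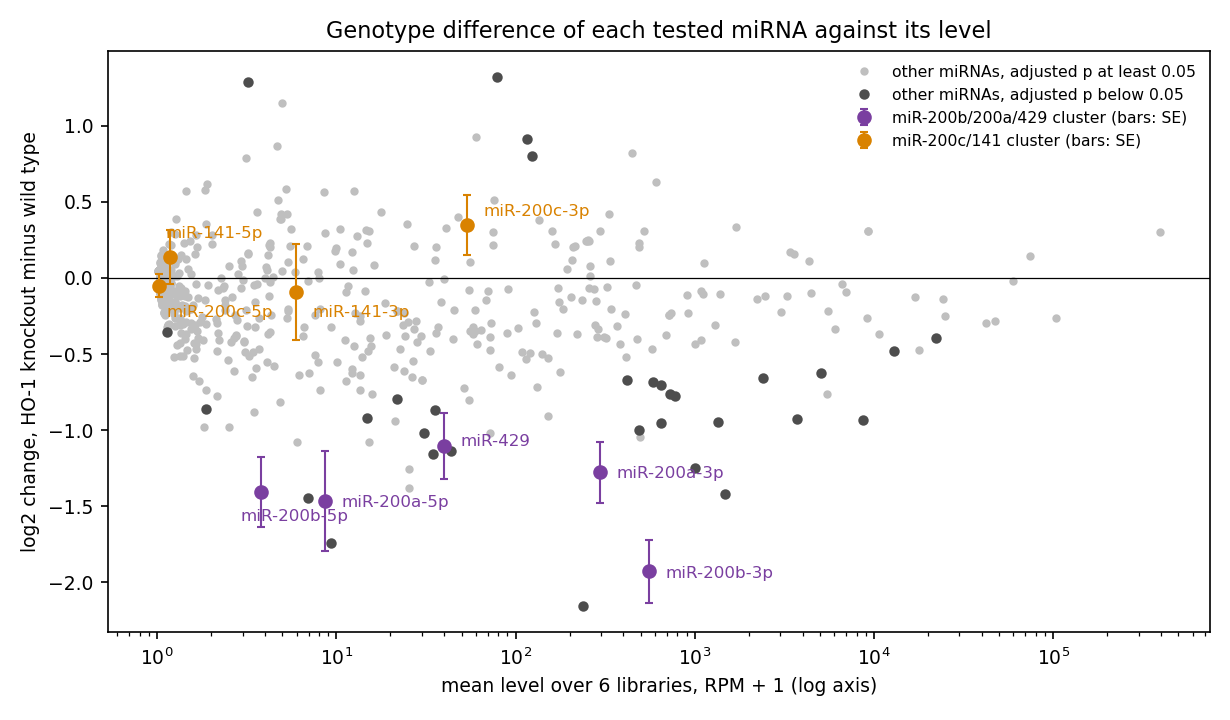
Log2 change (HO-1 knockout minus wild type, on log2(RPM + 1)) of each of the 570 tested miRNAs against its mean level (RPM + 1, log axis), with the family in colour and bars of 1 SE; dark points are other miRNAs with an adjusted p below 0.05. The cluster of miR-200b, miR-200a and miR-429 lies at -1.10 to -1.93 and the cluster of miR-200c and miR-141 at -0.09 to 0.35.

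Ratios within a library do not depend on its total and compare the clusters directly. The first cluster was 6.49, 7.22 and 6.27 times as abundant as the second in knockout libraries 1 to 3, and 22.3, 21.5 and 37.7 times in wild type libraries 1 to 3. The ratio was thus 3.95-fold lower in the knockout, a log2 difference of -1.98 between group means of 2.73 ± 0.11 in the knockout and 4.71 ± 0.45 in the wild type (SD, n = 3; exact permutation p = 0.1, two-sided and the smallest possible, or 0.15 adjusted over 6 ratios). In shares, miR-200c and miR-141 made up 13.1% ± 0.83 of the family in the knockout and 3.77% ± 1.03 in the wild type. Members that share a seed but come from different clusters were compared in the same way. The ratio of miR-200b-3p to miR-200c-3p was 3.65, 4.10 and 3.76 in knockout libraries 1 to 3 and 15.4, 14.9 and 28.6 in wild type libraries 1 to 3. The ratio of miR-200a-3p to miR-141-3p was 34.2, 36.2 and 40.4 in the knockout and 65.9, 94.2 and 93.6 in the wild type. Neither pair overlapped between genotypes, with log2 differences of -2.29 and -1.18 (exact permutation p = 0.1 each, 0.15 adjusted over 6 ratios). How often ratios of other miRNAs separate was not computed. Of the single miRNAs of at least 10 RPM, 41.7% were lower in every knockout library, so separation alone does not set these ratios apart.

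Grouped by seed, both sums were lower in the knockout. Rows with the seed of miR-200b, miR-200c and miR-429 summed to 307 ± 24.1 RPM in the knockout and 980.3 ± 262 RPM in the wild type. Those with the seed of miR-200a and miR-141 summed to 174 ± 19.4 RPM in the knockout and 425 ± 106 RPM in the wild type (SD, n = 3). The first group was 1.69, 1.65 and 1.99 times the second in knockout libraries 1 to 3, and 2.06, 2.32 and 2.55 times in wild type libraries 1 to 3. Each seed group was lower in every knockout library than in any wild type library, as were 41.7% of the single miRNAs of at least 10 RPM. The log2 difference of the ratio of the seed groups was -0.38 (exact two-sided permutation p = 0.1, 0.15 adjusted over 6 ratios). miR-200c-3p supplied 19.1% ± 1.0 of its seed group in the knockout and 4.96% ± 1.51 in the wild type. miR-141-3p supplied 2.65% ± 0.22 of its seed group in the knockout and 1.20% ± 0.26 in the wild type (SD, n = 3).

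Within the first cluster the 3p rows had log2 changes of different size. Their ratios were added after the values were seen. miR-200b-3p was 1.26, 1.24 and 1.5 times as abundant as miR-200a-3p in knockout libraries 1 to 3, and 1.85, 2.07 and 2.37 times in wild type libraries 1 to 3, a log2 difference of -0.65. Against miR-429 its ratio had a log2 difference of -0.80, with 8.52 to 10.9 in the knockout and 14.6 to 19.0 in the wild type. The ratio of miR-200a-3p to miR-429 moved least, at 7.11, 6.85 and 7.30 in knockout libraries 1 to 3 and 7.90, 7.62 and 8.004 in wild type libraries 1 to 3, a log2 difference of -0.15. All 3 ratios were lower in every knockout library (exact two-sided permutation p = 0.1, 0.13 adjusted over 9 ratios). The share of other ratios that separate in this way was not computed, and 41.7% of the single miRNAs of at least 10 RPM did. Ratios of arms from 1 hairpin overlapped between genotypes. miR-200a gave 44.1 to 54.9 reads of the 3p arm per read of the 5p arm in the knockout and 30.96 to 44.9 in the wild type (exact permutation p = 0.2). miR-200b gave 198 to 225 in the knockout and 177 to 217 in the wild type (exact permutation p = 0.3). The p-values of the arm ratios were 0.24 and 0.3 adjusted over 6 ratios.

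**Figure D3:**
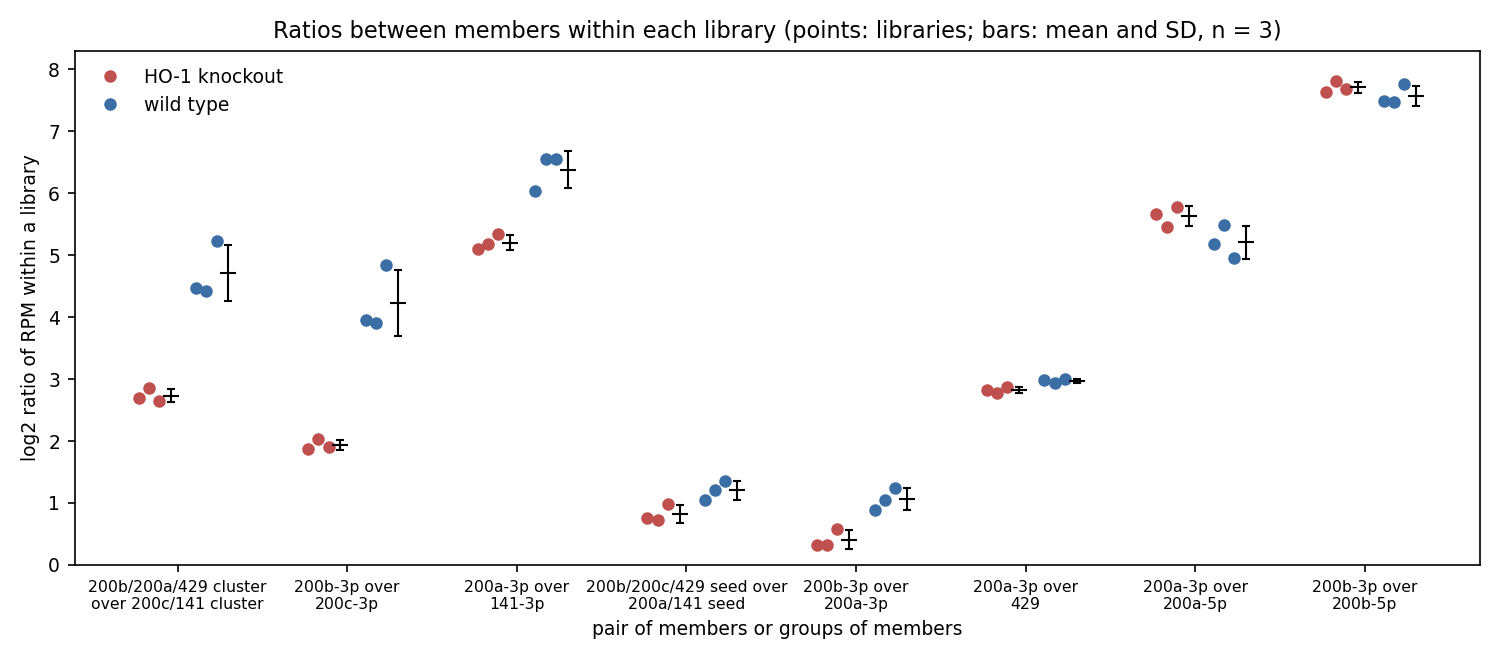
Log2 ratios between members or sums of members within each library, HO-1 knockout left of wild type; points are libraries and bars the mean and SD (n = 3). The ratio of the clusters is 2.73 ± 0.11 in the knockout and 4.71 ± 0.45 in the wild type, the ratio of miR-200a-3p to miR-429 is nearly level across libraries, and both arm ratios, at the right, overlap between genotypes.

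In the RefSeq gene table the miR-429, miR-200a and miR-200b genes are neighbours on 1 chromosome and the miR-141 and miR-200c genes neighbours on another. On the opposite strand, the gene of miR-3548 overlaps that of miR-200a and the gene of miR-3575 overlaps that of miR-200c. They are shown as products of the other strand, in capitals where they pair base by base with a 5p arm of the family:
miR-3548: CAGCACUGUCCGGUAAGAUGcc
miR-3575: ACUGCUGGGUAAGACGag
miR-3548 pairs over 20 bases with miR-200a-5p and had 1 read in the 6 libraries together. miR-3575 pairs over 16 bases with miR-200c-5p and had 0 reads. These are counts of mature miRNAs, so transcription of that strand was not tested.

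The family's own pattern was set beside that of other miRNAs by the root mean square difference, over the 6 libraries, of log2(RPM + 1) centred on its mean. For miR-200b-3p this difference was 0.35 to miR-200a-3p, 0.44 to miR-429 and 1.18 to miR-200c-3p. Among the miRNAs of at least 10 RPM outside the family, the nearest was miR-221-3p, at 0.32, which was the only one nearer than the cluster's own 3p rows. It was followed by miR-31a-5p at 0.46, miR-125b-2-3p at 0.52, miR-455-5p at 0.52 and miR-199a-3p at 0.53. Of these miRNAs, 89.7% were nearer to miR-200b-3p than its seed partner miR-200c-3p was. These differences describe 6 libraries and carry no test.

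Other miRNAs known from epithelial cells changed in both directions. Of 16 tested rows of miR-203a, miR-203b, miR-205, miR-183, miR-96, miR-182, miR-375, miR-31a, miR-192 and miR-194, 3 fell, 1 rose and 12 did not pass (limma adjusted p below 0.05), with a median log2 change of -0.34. The background shares were 5.61% lower and 0.702% higher. The median log2 change was -0.12 over all 570 tested miRNAs and -0.29 over the 218 of at least 10 RPM. The 3 that fell were miR-31a-5p, miR-194-5p and miR-203a-3p, a miRNA of skin keratinocytes. miR-203a-3p was at 404, 505 and 437 RPM in knockout libraries 1 to 3, against 797, 752 and 616 RPM in wild type libraries 1 to 3, a log2 change of -0.68 (SE 0.14; adjusted p = 0.027 in limma). The member that rose was miR-375-3p, of endocrine and some epithelial cells, at 99.3 to 124 RPM in the knockout and 33.7 to 52.5 RPM in the wild type (log2 change 1.32, limma adjusted p = 0.015). The most abundant member, miR-192-5p, was at 41157 to 44804 RPM in the knockout and 50218 to 55930 RPM in the wild type and did not pass (limma adjusted p = 0.091). With TMM scaling 3 fell and 4 rose, against background shares of 5.09% lower and 3.51% higher. The risers were then miR-375-3p, with a log2 change of 1.54, miR-183-5p with 1.15, miR-96-5p with 0.62 and miR-182 with 0.60, while miR-194-5p no longer passed.

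Markers of some other cell types were also lower in the knockout, and those of others were not. Over all tested miRNAs, limma called 5.61% lower and 0.702% higher. Of the miRNAs of at least 10 RPM, 41.7% were lower in every knockout library than in any wild type library. Smooth muscle and fibroblast miRNAs, 4 of 8 of which fell, summed to 6895 to 9094 RPM in the knockout and 12086 to 19225 RPM in the wild type, led by miR-143-3p and miR-199a-3p. Both arms of the endothelial miR-126a fell, and they summed to 19147 to 21287 RPM in the knockout and 25222 to 26982 RPM in the wild type. Nearly all of that sum was miR-126a-3p, with a log2 change of -0.39 (SE 0.08), and miR-126a-5p changed by -0.77 (SE 0.13). The median log2 change of the miRNAs of at least 10 RPM was -0.29. Rescaled values of these markers are not given here. Red blood cell miRNAs, none of 4 called, summed to 228 to 274 RPM in the knockout and 280.2 to 361 RPM in the wild type, led by miR-451-5p; the next, miR-144-3p, averaged 36.8 RPM in the knockout and 32.2 RPM in the wild type. Leukocyte miRNAs, none of 6 called, overlapped as a sum, at 820.4 to 935 RPM in the knockout and 764 to 882 RPM in the wild type. Single rows went in both directions, with a median log2 change of -0.02. The 2 most abundant were miR-142-3p, with a log2 change of 0.42 (SE 0.11; adjusted p = 0.062 in limma), and miR-142-5p, with -0.06 (SE 0.15). miR-142-3p averaged 378 RPM in the knockout and 282 RPM in the wild type. The 2 arms of miR-122 summed to 403907 to 464870 RPM in the knockout and 328377 to 366899 RPM in the wild type. Almost all of this was miR-122-5p, and neither arm was called (limma adjusted p = 0.095 for the 5p and 0.61 for the 3p arm). miR-122-3p averaged 1326 RPM in the knockout and 1420 RPM in the wild type. The part of these cell types in the fall of the miR-200b, miR-200a and miR-429 cluster was not tested. Per 1000000 reads other than miR-122, the cluster stood at 751 ± 95 in the knockout and 2117 ± 563 in the wild type (SD, n = 3; exact permutation p = 0.1), 2.82-fold lower in place of 3.24-fold.

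The size of these changes depended on the reference total, and their calls on single libraries. TMM scaling, which sets libraries equal over the bulk of their miRNAs, moved the median log2 change of the 218 miRNAs of at least 10 RPM by 0.21, to -0.07, and with it miR-200b-3p changed by -1.70, miR-200a-3p by -1.05 and miR-429 by -0.89 (limma adjusted p = 0.0067, 0.022 and 0.039). miR-200b-3p passed in all 6 fits that left out a library. Without knockout library 3 it was the only member called, where 0.883% of the tested miRNAs were called lower, and miR-200a-3p had a limma adjusted p of 0.079. Without knockout library 1 or 2, 2 members were called, where 1.95% and 3.36% of the tested miRNAs were called lower. Without wild type library 1 or 3, 3 members were called, where the shares were 2.89% and 3.89%, so calls were fewer over all miRNAs in these fits too. miR-429 missed the threshold in 5 of the 6 fits that left out a library, all but that without wild type 2, and with upper-quartile scaling (limma adjusted p = 0.063 to 0.13). miR-200a-5p missed it in the same 5 fits, in the replicate block (limma adjusted p = 0.075), with RLE and upper-quartile scaling, without the 10 most abundant miRNAs in the total and with a pseudocount of 5. miR-200b-5p missed it in each of the 3 fits without a knockout library (limma adjusted p = 0.058 to 0.085).

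**Figure D4:**
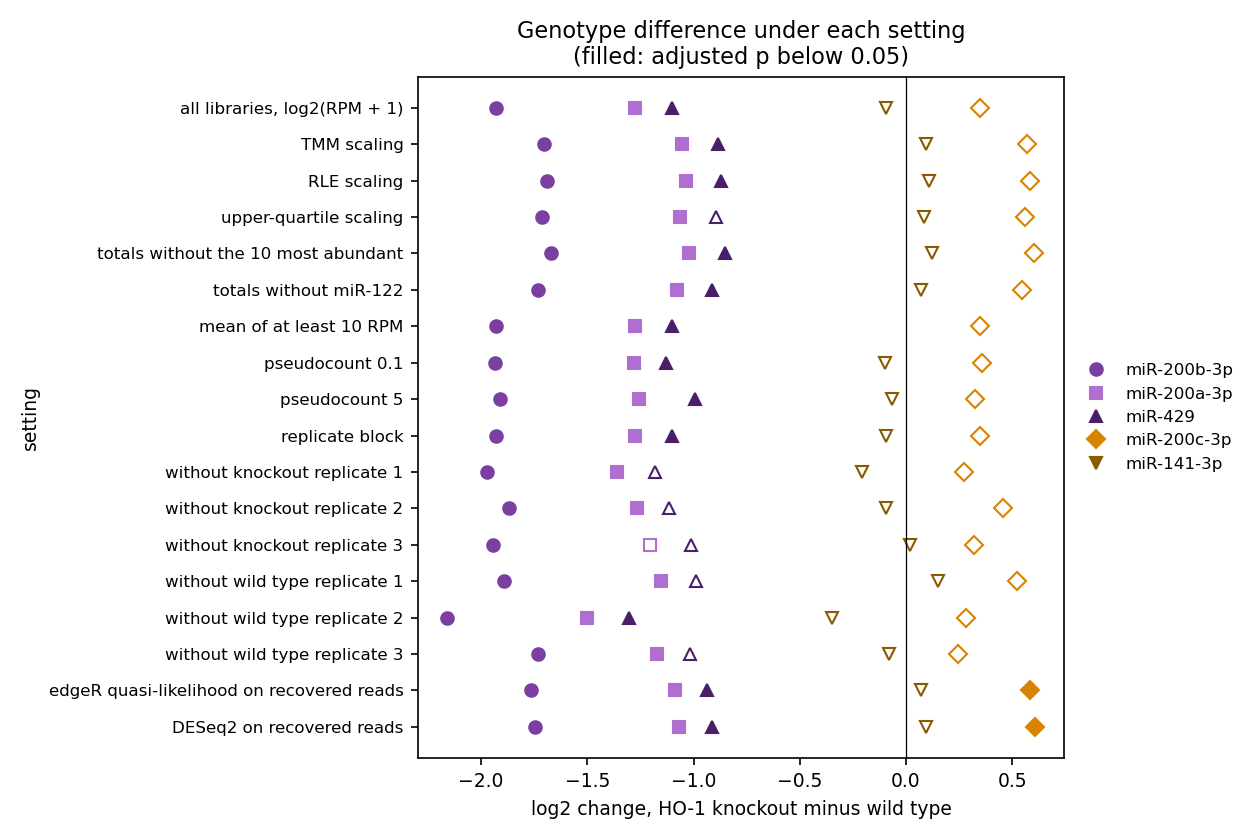
Log2 change (HO-1 knockout minus wild type) of 5 members under each setting, one row per setting; filled symbols had an adjusted p below 0.05 and open ones did not. miR-200b-3p is filled in every row, at -1.67 to -2.16; miR-200c-3p is right of 0 in every row and filled in the 2 tests on recovered reads; miR-141-3p lies near 0 on both sides and was not tested under the filter of 10 RPM.

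The authors' deposited table gives log2 fold changes of -1.97 for miR-200b-3p, -1.31 for miR-200a-3p, -1.16 for miR-429, -1.78 for miR-200a-5p and -2.08 for miR-200b-5p. For miR-200c-3p the authors' deposited table gives 0.34, with a p-value of 0.0067, and for miR-141-3p it gives -0.17, with a p-value of 0.86. The sources used here do not say whether these p-values were adjusted.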

How the data were processed

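Small RNA libraries were made by a ligation-based kit and sequenced as single-end reads, per the labels' protocols. The authors deposited 1 table of reads per 1000000 assigned reads (RPM) for 764 rat miRNAs, with their mean RPM, log2 fold change and p-value, per the file headers. Per the submitters' processing notes, FastQC, BWA, edgeR and the build rn6 were used, without stated roles or versions. Since the values are RPM, limma 3.58.1 (R 4.3.3) with an intensity trend on log2(RPM + 1) of the 570 miRNAs above 0 in some library was the main test, adjusted by the Benjamini-Hochberg method at 0.05; 194 rows at 0 were not tested. Log2 changes from limma are on that log2 scale and understate rare miRNAs. Folds of levels are ratios of mean values with nothing added. The fold of the cluster ratio comes from the mean log2 ratios, also with nothing added. For summed levels and ratios, an exact permutation test (two-sided, 3 libraries against 3) was used.

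Whole reads were recovered from the RPM steps. Of the values above 0, 97.8% to 98.9% came out whole with a tolerance of 0.0051 RPM, where chance gives 8.47% to 10.2%. The step of wild type library 1 is so close to 0.1 RPM that its total rests on its higher values. edgeR 4.0.16, which called 61 miRNAs, and DESeq2 1.42.0 were run on these reads as alternatives. Limits for a count of 0 use 3 reads and cover counting error only, since PCR copies were not removed. The limma fit with TMM scaling and the edgeR test were tried on simulated data with known changes. The main fit without scaling, DESeq2, the recovery of reads and the permutation test were not. The members and lists were chosen with earlier results of these data known. Named miRNAs were all members, the 5 nearest in pattern, the called and most abundant of the other epithelial list and the 2 most abundant of each marker list; miR-96-5p, miR-182 and miR-183-5p were named after their values were seen. Sequences are from RefSeq on GRCr8, whose coordinates are not printed since that build differs from rn6. No replicates were alike within sampling noise.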

Additional observations from a re-analysis of the deposited data

How the results depend on the processing

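The log2 changes of miR-200b-3p, miR-200a-3p, miR-429 and both 5p arms of their cluster were negative, and that of miR-200c-3p positive, in each alternative run. Of 9 members, 5 were called; 3 were with upper-quartile scaling, 3 of the 4 members tested with a mean of at least 10 RPM, and 1 to 5 with 1 library left out. miR-141-3p reversed to 0.096 (TMM), 0.109 (RLE), 0.085 (upper quartile), 0.121 (totals without the 10 most abundant), 0.072 (totals without miR-122), 0.072 (edgeR), 0.095 (DESeq2) and 0.096 (relative to reads other than miR-122), and ran from -0.35 to 0.15 with 1 library left out; miR-141-5p ran from -0.067 to 0.28. The cause was not tested. The log2 difference of the cluster ratio was -1.52, and that of the seed ratio -0.21, when rows were averaged on log2(RPM + 1), which weights rare rows like abundant ones. Adding 1 RPM to both arms gave 0.19 for miR-200a and -0.52 for miR-200b in place of 0.43 and 0.14, against 5p levels of 3.43 RPM (knockout) and 11.8 RPM (wild type) for miR-200a and 1.08 and 4.55 RPM for miR-200b. With 1 library left out, the cluster ratio ran from -2.12 to -1.72, the seed ratio from -0.46 to -0.31, miR-200b-3p to miR-200c-3p from -2.45 to -1.99, miR-200a-3p to miR-141-3p from -1.35 to -1.09, the arm ratios from 0.30 to 0.57 and from 0.08 to 0.23, and the summed level from -1.74 to -1.36. Of the other epithelial miRNAs, 4 were called; 7 were in edgeR, in DESeq2 and with upper-quartile, RLE and TMM scaling, 8 with a mean of at least 10 RPM, 2 in the replicate block and 1 to 4 with 1 library left out. The replicate block called 4 family members. Shares over all miRNAs are not given here for upper-quartile or RLE scaling, the filter of 10 RPM or the replicate block. Counts under those settings therefore do not set these miRNAs apart from the rest. Equal replicate numbers are not stated to pair libraries: deviations of same-numbered libraries correlated at 0.03, 0.18 and 0.20 across 218 miRNAs, and knockout library 1 did not correlate best with its own number. Depth sets the limit for miR-141-5p and miR-200c-5p, with 7 and 0 reads over the knockout libraries and 3 and 1 over the wild type libraries.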
